A study of Rattus norvegicus with 23 samples.

Results

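The genes described here are 38 chromatin regulators grouped for their long transcripts: histone methyltransferases and demethylases, acetyltransferases, ATP-driven remodellers, bromodomain readers, DNA dioxygenases and a corepressor scaffold. They were matched by symbol in the array annotation, and the rule held no measured value. The list itself was drawn up with earlier results of these data known, so its values describe these hearts and are not an independent test. In the annotation used, 24 of the 38 were matched, by 25 probe sets that name 1 gene each. The matched genes were 4 of 6 H3K4 and H3K36 methyltransferases, 5 of 8 CHD remodellers, 3 of 5 SWI/SNF genes, 3 of 6 bromodomain readers, 4 of 4 acetyltransferases and scaffolds, 4 of 5 demethylases and 1 of 2 in the class of *Atrx* and *Ncor1*. *Kmt2a*, *Kmt2c*, *Chd4*, *Chd7*, *Chd9*, *Arid1b*, *Arid2*, *Baz1a*, *Brwd1*, *Brwd3*, *Kdm6a*, *Tet2*, *Tet3* and *Atrx* had no probe set that this annotation names for them alone and were not analysed here, which does not say that the array lacks probes for them.

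DNA in the nucleus is wound on histones, and these proteins decide which stretches can be read. Methyltransferases and acetyltransferases mark histone tails at enhancers, promoters and gene bodies, demethylases take methyl marks off, and remodelling complexes use ATP to slide or evict nucleosomes. In the heart several of them, among them the SWI/SNF ATPase gene *Smarca4* and the methyltransferase gene *Kmt2d*, are required for cardiac development in the mouse.

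The study asked how late-gestational maternal diabetes and a maternal high-fat (HF) diet alter the heart transcriptome of newborn rats. Whole hearts of postnatal day 1 offspring, males and females together, were measured in 4 groups: combination (n = 5), diabetes (n = 6), HF diet (n = 5) and control (n = 7). Combination dams ate the HF diet from 28 days or more ahead of mating until the end of pregnancy and received 65 mg/kg streptozotocin, which destroys insulin-producing cells, on gestational day 14. Diabetes dams received the same streptozotocin dose on control diet, HF diet dams received citrate buffer on the HF diet, and control dams received citrate buffer on control diet. Streptozotocin-treated dams of both diets also received insulin, which controlled their hyperglycemia only in part, and delivery was on gestational day 22.

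Values were log2 intensities from Affymetrix Rat Gene 1.0 ST arrays, each probe set set to a median of 0 over the 23 hearts, so differences between hearts can be read but levels and signal over background cannot. The number of arrays limits the precision. Combination heart 1 had the widest spread of values over all probe sets, with an SD of 0.39 against 0.16 to 0.33 in the other hearts. The sample codes share a stem between some hearts, giving 3 stems for the 5 combination hearts and 3 for the 5 HF diet hearts, and combination hearts 1 and 2 share 1 stem. What a stem stands for was not given, hearts of 1 stem may come from 1 litter, and p-values then cover only how much the sampled hearts vary. Control heart 1 averaged 4.001 over 8 genes of lung and thymus, against at most 0.80 in any other heart. Since levels cannot be read, the labelled tissue could not be checked against its markers beyond their differences between hearts.

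The promoters of the 3 regulators with the largest difference relative to its error in combination against control hearts are shown. These 3 were picked by the values of these data. Whether a promoter feature bears on the shared movement of the members was not tested. The sequences are the 250 bases before the start used by the RefSeq promoter table (GRCr8), with the motifs found in capitals: GGGCGG (Sp1) or CCAAT on either strand. That start lies inside the outermost annotated end of the gene, by 72 bases in *Bptf*, 2007 in *Nsd1* and 33 in *Crebbp*, so the *Nsd1* window lies wholly within the annotated gene. *Bptf*, the reader subunit of the NURF remodeller, lies on the minus strand at chr10:92582414-92582663. *Nsd1*, an H3K36 methyltransferase, lies on the minus strand at chr17:9429522-9429771. *Crebbp*, the acetyltransferase CBP, lies on the plus strand at chr10:11842090-11842339.
Bptf: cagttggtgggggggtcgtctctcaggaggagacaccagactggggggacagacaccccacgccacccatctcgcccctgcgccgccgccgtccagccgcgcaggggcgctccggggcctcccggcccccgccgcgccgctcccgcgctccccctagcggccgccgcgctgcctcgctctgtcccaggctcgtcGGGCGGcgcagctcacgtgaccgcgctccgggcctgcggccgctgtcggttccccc
Nsd1: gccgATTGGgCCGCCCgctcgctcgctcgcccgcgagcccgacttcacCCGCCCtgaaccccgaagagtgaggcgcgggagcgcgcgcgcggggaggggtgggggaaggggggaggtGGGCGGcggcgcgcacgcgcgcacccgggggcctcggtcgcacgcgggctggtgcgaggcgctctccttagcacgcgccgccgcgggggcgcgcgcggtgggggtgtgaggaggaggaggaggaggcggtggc
Crebbp: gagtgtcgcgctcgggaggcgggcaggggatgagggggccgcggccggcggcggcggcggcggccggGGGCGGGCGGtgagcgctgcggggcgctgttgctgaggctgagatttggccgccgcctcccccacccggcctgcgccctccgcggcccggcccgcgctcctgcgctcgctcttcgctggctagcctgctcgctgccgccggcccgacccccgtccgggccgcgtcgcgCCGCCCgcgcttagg

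Capitals mark 1 match for Sp1 in *Bptf*, 3 in *Nsd1* together with a CCAAT match, and 3 in *Crebbp*, where one run holds overlapping matches. In the window from 250 bases before to 50 bases after that table's start, 20 of the 24 matched regulators had a promoter entry, and *Kmt2d*, *Ash1l*, *Chd2* and *Chd8* did not. GGGCGG was found in 16 of the 20 (80.0%), against 50.2% of the 11968 promoters in the table. The 20 windows held a median of 30 CG dinucleotides, with a range of 4 to 49, against a median of 16 over all promoters, of which 17.1% held at least 30. CCAAT was present in 4 of 20 (20.0%, against 38.3% of all), and neither CCGGAAGT (ETS, 5.93% of all) nor TATAAA (11.8% of all) was found in any. The motif of YY1 was found in 2 of 20 (*Bptf* and *Ncor1*), against 1.34% of all promoters, and that of NRF1 in 1 of 20 (*Smarca4*), against 1.39%. These are letter matches and not tests of binding, and all motifs were read on both strands. The promoters compared with were not matched to the regulators for CG content.

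The 24 regulators were low as a group in combination hearts. Their mean log2 value per heart was -0.71, -0.23, -0.26, -0.01 and -0.13 in combination hearts 1 to 5. It ranged from -0.34 through a median of 0.06 to 0.23 in diabetes hearts, was 0.18, -0.03, 0.23, -0.07 and 0.06 in HF diet hearts 1 to 5, and ranged from -0.30 through 0.12 to 0.29 in control hearts. All 5 combination means were below 0, and combination heart 1 was the lowest of all 23 hearts for 22 of the 24 regulators. The combination range nevertheless overlapped each of the others, with diabetes heart 5 and control hearts 3 and 5 also low. Group means were -0.27 ± 0.26 in combination, 0.03 ± 0.20 in diabetes, 0.07 ± 0.13 in HF diet and 0.02 ± 0.24 in control hearts (SD). Exposure group held 29.3% of the variance of this mean over the 23 hearts, and 16.8% without combination heart 1. With so few hearts per group, group means hold part of the variance by chance even where exposure has no effect. That chance share was not computed, and whether 29.3% or 16.8% exceeds it was not tested. These are whole hearts, so fewer cells of a type and less RNA per cell cannot be told apart.

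**Figure D1:**
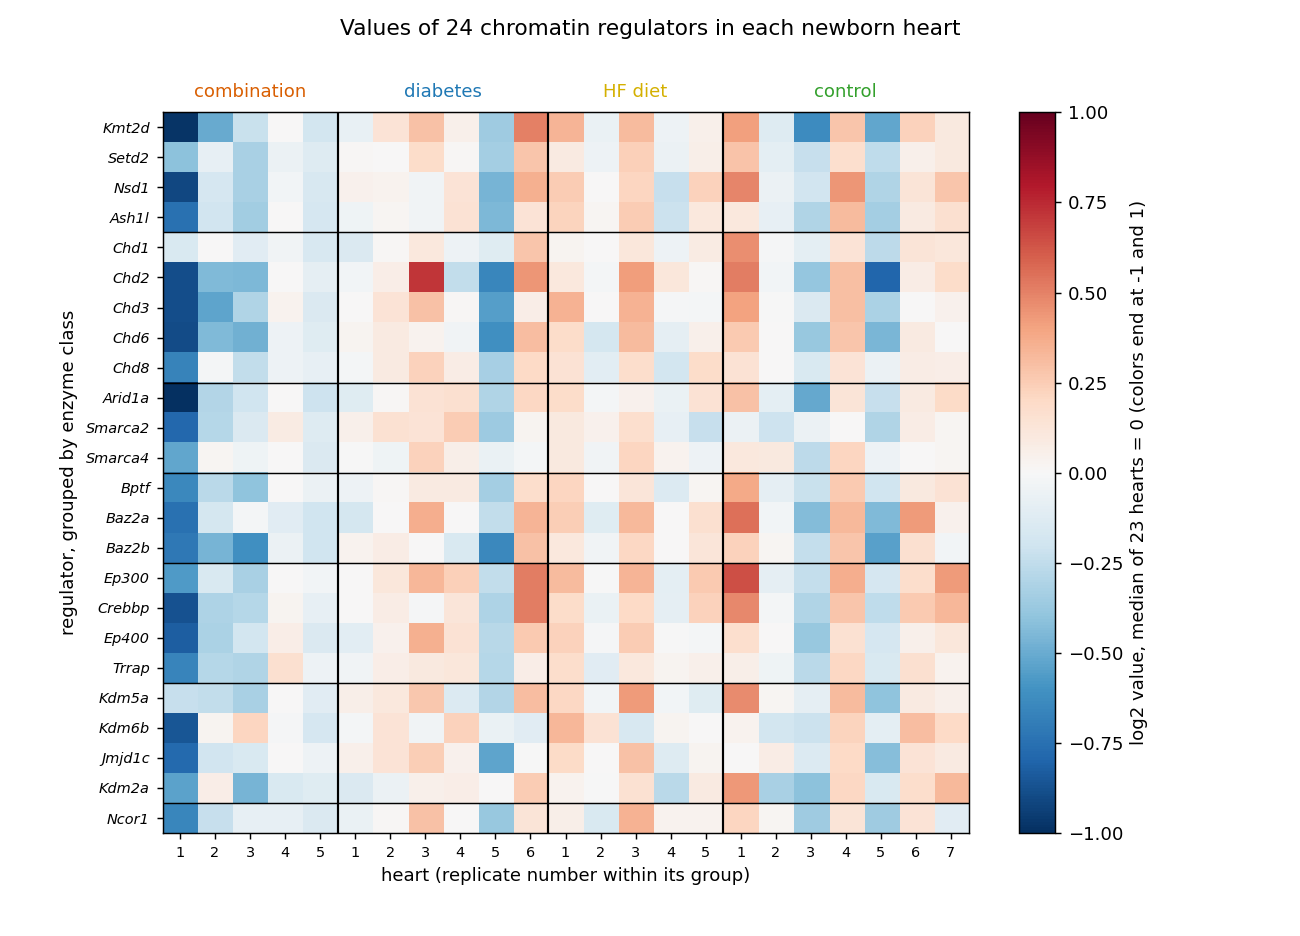
Log2 value (color, 0 is the median of the 23 hearts) of each of 24 regulators (rows, in enzyme classes) in each heart (columns, by exposure group and replicate number). Columns are mostly of 1 color: combination hearts 1 and 5 and control hearts 3 and 5 were below 0 for all 24 regulators, and HF diet heart 1 was above 0 for all 24.

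Hearts tended to be low or high for most regulators at once. In combination hearts 1 to 5, 24, 20, 23, 10 and 24 of the 24 regulators were below 0. Diabetes heart 5 had 23 below 0, while the other diabetes hearts had 2 to 14. Control hearts 3 and 5 had all 24 below 0 without any exposure, and control hearts 4 and 6 had none.

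Against control hearts, all 24 differences in combination hearts were negative, with a median of -0.28 on the log2 scale and a range of -0.43 to -0.16, while 49.8% of the 28366 rows tested were negative and their median was 0.00. The regulators moved together within groups (given below), so their like signs, here and in later comparisons, are not 24 separate observations. A regulator was called lower when its log2 difference passed -0.32 and its unadjusted limma p was under 0.05, the threshold of the study's methods. The limma test is a linear model over all 23 hearts that pools information on the spread across genes. By this rule 8 of 24 were lower in combination hearts and 0 were higher, against 1.23% and 2.11% of all rows, and 11 had an unadjusted p under 0.05, against 9.85%. With Benjamini-Hochberg adjustment over all rows none of the 24 passed in limma (adjusted p 0.497 to 0.603), and none passed with the methods' t-test (2 at an unadjusted p under 0.05). In limma 0 of the 28366 rows passed adjustment, here, in the comparisons below and in the interaction, so this is not particular to the regulators. Exact permutation of the hearts, two-sided, gave p under 0.05 for 6 of the 24. For this test, and for the methods' test at an unadjusted p under 0.05, no share of all rows is given. Those counts, here and in the comparisons below, therefore have no base rate beside them. Under the alternative settings the smallest adjusted p of the 24 ranged from 0.214 to 1.

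Of the 4 histone methyltransferase genes matched, 1 was called. *Nsd1*, which writes H3K36 dimethylation, was -0.91, -0.17, -0.33, -0.03 and -0.16 in combination hearts 1 to 5, against a lowest of -0.30, a median of 0.13 and a highest of 0.49 in control hearts. Combination hearts 1 and 3 lay below every control heart and the other 3 inside the control range. *Nsd1* was 1.35-fold lower in combination hearts (log2 difference -0.43, SE 0.16, limma adjusted p = 0.497, exact permutation p = 0.048). *Kmt2d*, which writes H3K4 methylation at enhancers, differed by -0.34 (SE 0.19), *Ash1l* by -0.28 (SE 0.13) and *Setd2*, which writes H3K36 trimethylation in gene bodies, by -0.20 (SE 0.11). None of these 3 passed the threshold.

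Among the 5 CHD remodellers, 2 were called. *Chd3*, an ATPase of the NuRD complex, averaged -0.36 ± 0.36 in combination hearts and 0.04 ± 0.25 in control hearts, a 1.32-fold lower level (exact permutation p = 0.0492). Its combination values were -0.89, -0.53, -0.30, 0.04 and -0.14, so hearts 1 and 2 lay below every control heart and hearts 3 to 5 among them. *Chd6* averaged -0.40 ± 0.34 in combination hearts and -0.03 ± 0.29 in control hearts, a difference of -0.37 (exact permutation p = 0.0644). *Chd2* differed by -0.36 with an SE of 0.22, *Chd8* by -0.25 and *Chd1*, which travels with elongating polymerase, by -0.16, and none of the 3 passed.

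The bromodomain readers gave 2 calls of 3. *Bptf* was -0.64, -0.27, -0.40, 0.00 and -0.06 in combination hearts 1 to 5, against -0.22, 0.10 and 0.38 as the lowest, median and highest control hearts. Hearts 1 to 3 lay below every control heart and hearts 4 and 5 lay inside the control range. Its difference of -0.33 had the smallest SE of the 8 called genes, 0.12 (limma adjusted p = 0.497, exact permutation p = 0.0442). *Baz2b* averaged -0.41 ± 0.28 in combination hearts and -0.02 ± 0.29 in control hearts (exact permutation p = 0.0467), and *Baz2a*, part of a nucleolar remodelling complex, differed by -0.31 without passing.

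Both acetyltransferases were called. *Crebbp* was -0.87, -0.31, -0.29, 0.03 and -0.08 in combination hearts 1 to 5, against -0.30, 0.26 and 0.48 as the lowest, median and highest control hearts, 1.33-fold lower (exact permutation p = 0.0442). Its close relative *Ep300* averaged -0.21 ± 0.23 in combination hearts and 0.16 ± 0.34 in control hearts, 1.30-fold lower (exact permutation p = 0.0631). *Crebbp* was below every control heart in combination hearts 1 and 2, and for both genes combination heart 4 stood at or near 0, inside the control range. The scaffolds did not pass: *Ep400*, the ATPase of the TIP60 complex, differed by -0.27 and *Trrap*, which carries several acetyltransferase complexes, by -0.23. The 2 *Trrap* probe sets both gave negative differences, -0.16 and -0.29.

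SWI/SNF genes gave 1 call of 3. *Arid1a*, the DNA-binding subunit of the BAF complex, was -1.01, -0.29, -0.20, 0.00 and -0.21 in combination hearts 1 to 5, against -0.52, 0.09 and 0.29 as the lowest, median and highest control hearts. Only heart 1 lay below the control range. Its difference was -0.32, at the edge of the threshold (SE 0.15, exact permutation p = 0.125). The alternative ATPases *Smarca2* and *Smarca4* differed by -0.18 and -0.16, both under the fold threshold.

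None of the 4 demethylases passed, nor did *Ncor1*. *Kdm2a*, an H3K36 demethylase, came nearest at -0.28 (SE 0.14, unadjusted limma p = 0.0523, exact permutation p = 0.146), with -0.24 ± 0.25 in combination hearts and 0.04 ± 0.33 in control hearts. *Kdm5a*, an H3K4 demethylase, differed by -0.25, *Jmjd1c* by -0.22 and *Kdm6b*, an H3K27 demethylase, by -0.20. *Ncor1*, the corepressor that docks histone deacetylase 3, averaged -0.24 ± 0.24 in combination hearts and -0.05 ± 0.24 in control hearts, a difference of -0.19 (exact permutation p = 0.188). The class means differed little among themselves, with combination group means of -0.20 for the demethylases to -0.31 for the bromodomain readers.

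**Figure D2:**
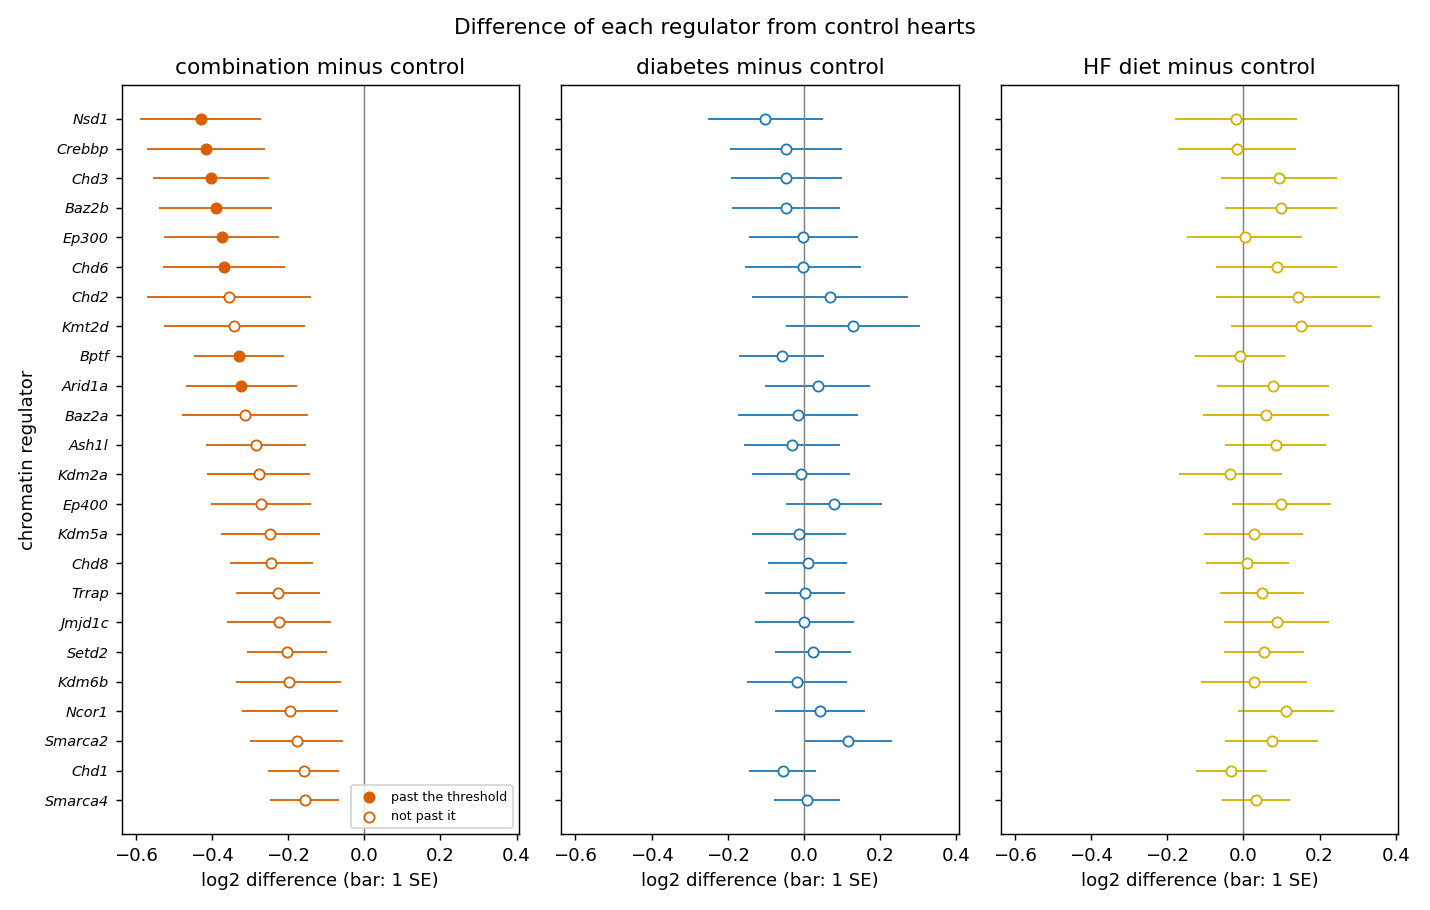
Log2 difference of each regulator from control hearts (points, with 1 SE from limma) for combination, diabetes and HF diet hearts, with filled points past the threshold of log2 difference 0.32 and unadjusted p 0.05. All 24 combination differences lie left of 0 and 8 are filled, while the diabetes and HF diet points lie on both sides of 0 and none is filled.

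Against HF diet hearts, which share the diet, the differences of combination hearts were again all negative, with a median of -0.34 and a range of -0.50 to -0.13, while 53.4% of all rows were negative and their median was -0.01. The rule called 11 of 24 lower and 0 higher, against 2.92% and 2.83% of all rows. None passed adjustment in limma (adjusted p 0.369 to 0.564, 17 at an unadjusted p under 0.05, against 13.3% of all rows) or with the methods' t-test (10 at an unadjusted p under 0.05). *Baz2b* was -0.71, -0.46, -0.61, -0.06 and -0.20 in combination hearts 1 to 5, against 0.11, -0.04, 0.21, 0.00 and 0.12 in HF diet hearts 1 to 5. It was the 1 regulator for which all combination hearts lay below all HF diet hearts, a separation found in 0.945% of all rows, and its exact permutation p of 0.00794 is the smallest that 5 against 5 hearts can give. *Chd3* differed by -0.50 (SE 0.17), *Chd6* by -0.46, *Arid1a* by -0.40, *Ep400* by -0.37 and *Ash1l* by -0.37, and the other 5 called were *Kmt2d*, *Chd2*, *Nsd1*, *Crebbp* and *Ep300*.

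Against diabetes hearts, which share the streptozotocin exposure, all 24 differences of combination hearts were negative too, with a median of -0.28 and a range of -0.47 to -0.10, against 49.4% of all rows negative. The rule called 8 of 24 lower and 0 higher, against 1.4% and 1.65% of all rows. None passed adjustment in limma (adjusted p 0.528 to 0.713, 11 at an unadjusted p under 0.05, against 9.4% of all rows) or with the methods' t-test (1 at an unadjusted p under 0.05). *Ep400* was -0.83, -0.32, -0.18, 0.06 and -0.15 in combination hearts 1 to 5, against -0.28, 0.09 and 0.36 as the lowest, median and highest diabetes hearts. Combination hearts 1 and 2 lay below that range and the other 3 inside it (difference -0.35, SE 0.14, exact permutation p = 0.0628). *Kmt2d* was -0.98, -0.50, -0.22, 0.00 and -0.18 in combination hearts 1 to 5, against -0.36, 0.09 and 0.50 as the lowest, median and highest diabetes hearts (difference -0.47, exact permutation p = 0.0411), again with hearts 1 and 2 below that range. The remaining calls were *Ep300*, *Arid1a*, *Crebbp*, *Chd3*, *Chd6* and *Baz2b*, with differences of -0.37 to -0.34. The 3 comparisons above share the combination hearts, so their like signs are not independent.

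No regulator was called in the comparisons without combination hearts. In diabetes hearts 13 of 24 differences from control hearts were negative (49.7% of all rows were) and 11 positive, with a median of 0.00 and a range of -0.10 to 0.13. The rule called 0 lower or higher, where 0.0811% of all rows were lower and 0.229% higher, and 0 had an unadjusted limma p under 0.05, where 1.6% of all rows had. HF diet hearts had 5 negative differences from control hearts (44.0% of all rows) and 19 positive ones, with a median of 0.06 and a range of -0.03 to 0.15. Again 0 were called, where 0.254% of all rows were lower and 0.702% higher, and 0 had an unadjusted limma p under 0.05, against 2.69%. The methods' t-test put 0 of the 24 under 0.05 in both comparisons. Diabetes hearts against HF diet hearts gave 22 negative differences (56.2% of all rows) with a median of -0.04 and 0 called, where 0.208% of all rows were lower and 0.229% higher, and 0 had an unadjusted limma p under 0.05, against 2.15%. The control hearts are shared by the comparisons with control.

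Whether the combination differed from the sum of the single exposures was tested as an interaction, the combination minus diabetes minus HF diet plus control means. All 24 interaction values were negative, with a median of -0.34 and a range of -0.62 to -0.07, against 51.9% of all rows negative. The interaction uses the same combination and control hearts, and the median differences from control were -0.002 in diabetes and 0.056 in HF diet hearts. Its signs are thus not independent of those of combination against control hearts. The rule called 4 lower and 0 higher, against 2.61% and 1.77% of all rows: *Kmt2d* at -0.62 (SE 0.27), *Ep400* at -0.45 (SE 0.19), *Arid1a* at -0.44 (SE 0.21) and *Smarca2* at -0.37 (SE 0.17). None passed adjustment in limma, the adjusted p of these 4 being 0.675, and 6.53% of all rows had an unadjusted p under 0.05.

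Combination heart 1 carried much of the size. Without it all 24 differences from control, HF diet and diabetes hearts stayed negative, with medians of -0.18, -0.24 and -0.18, but 0, 2 and 0 regulators were called, where 0.479%, 1.18% and 0.539% of all rows were lower, and the interaction called 0. The 2 were *Baz2b* at -0.41 and *Chd3* at -0.37 against HF diet hearts. *Nsd1* then differed from control hearts by -0.28, *Crebbp* by -0.27, *Bptf* by -0.24 and *Arid1a* by -0.16. Leaving out both hearts of that code stem gave medians of -0.17, -0.22 and -0.16, with 23, 24 and 24 of 24 negative and 0 calls in each comparison, where 0.374%, 0.582% and 0.353% of all rows were lower. Control heart 1, high for the lung and thymus genes, also had the highest regulator mean, and without it 4 regulators were called against control hearts, where 0.779% of all rows were lower.

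**Figure D3:**
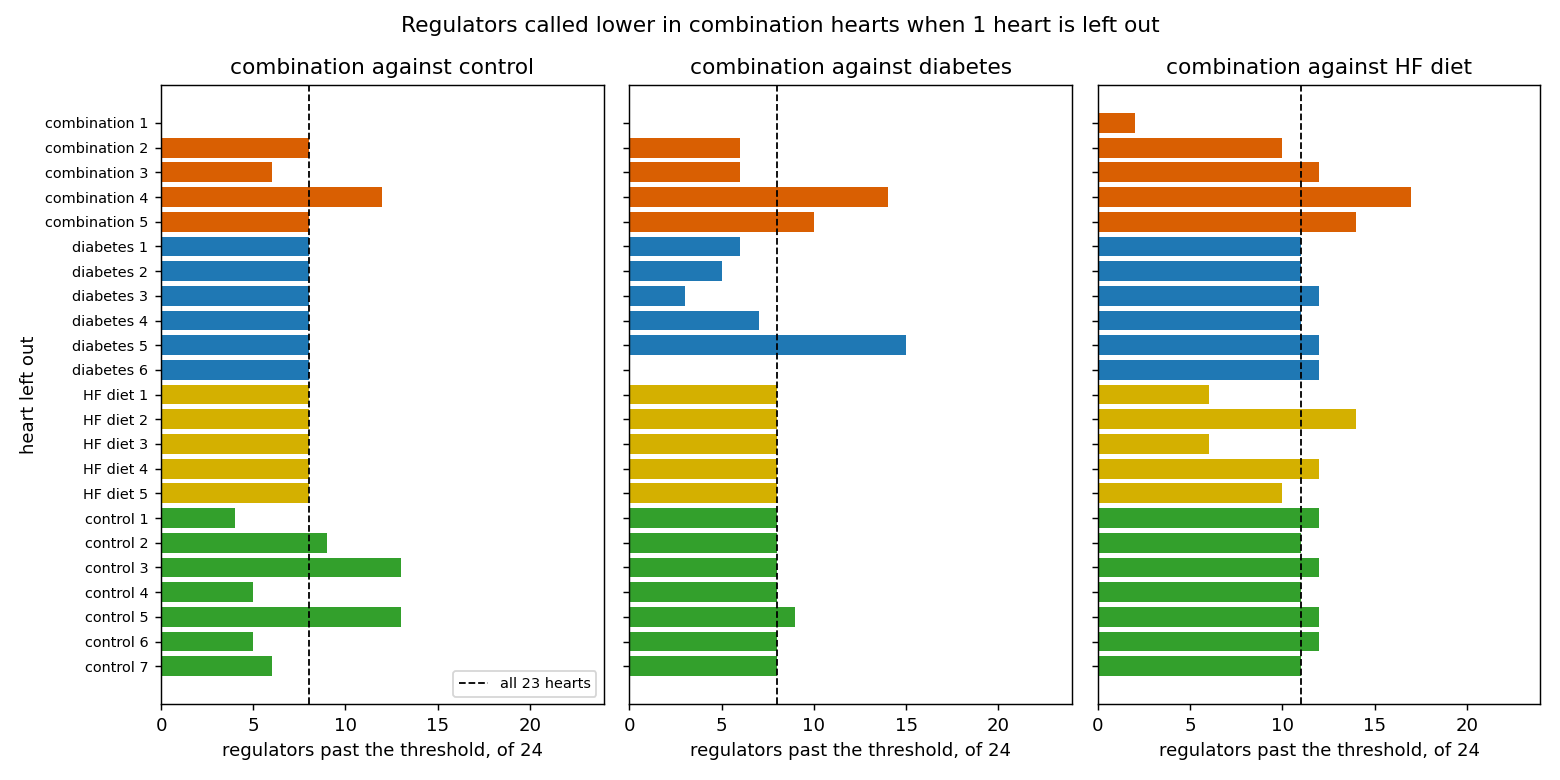
Number of the 24 regulators called lower (horizontal axis) in combination hearts against control, diabetes and HF diet hearts when 1 heart (vertical axis) is left out, with a dashed line at the number from all 23 hearts. The number drops to 0, 0 and 2 without combination heart 1, and also to 0 against diabetes hearts without diabetes heart 6.

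How far the regulators moved as 1 block was read within the groups, from each heart's deviation from its group mean, so that differences between exposures played no part. All 276 pairs of regulators correlated above 0 over the 23 hearts, with a median Pearson r of 0.79 (0.76 without combination heart 1) and a range of 0.06 to 0.95. The first principal component held 79.3% of the variance of the 24 regulators, where it held 23.7% over all genes. The mean of the other 23 regulators held 28.0% to 93.0% of a regulator's variance (the square of their correlation), with a median of 80.4%. The mean of all 24 held a median of 12.7% of the variance of the 14482 other genes. Of those other genes 37 (0.255%) followed the regulators as closely as the median regulator did, and 71 ran as closely the opposite way. These values describe arrays that share normalization and heart composition, and genes are not independent replicates.

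The regulators differed in how closely they followed the block. *Kmt2d* was held to 93.0%, *Bptf* to 91.0%, *Chd6* to 90.1%, and *Nsd1*, *Crebbp* and *Ash1l* to 86.9%, 86.5% and 86.1%. *Chd2* and *Kmt2d* swung widest, moving 1.65 and 1.53 log2 units for each unit of the mean of the others, while *Smarca4* and *Chd1* moved 0.51 and 0.52. *Kdm6b* was held least, to 28.0%, followed by *Kdm2a* (49.4%), *Chd1* (53.2%), *Smarca4* (54.6%), *Smarca2* (57.1%) and *Kdm5a* (58.6%). *Kdm6b* was -0.86, 0.02, 0.22, -0.01 and -0.17 in combination hearts 1 to 5, and shared the low value of heart 1 but not those of hearts 2 and 3. The 6 loosest were thus 3 demethylases, both SWI/SNF ATPases and 1 CHD remodeller, while all 4 methyltransferases, with *Setd2* at 86.0%, were held above the median.

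A list of partner subunits and other chromatin enzymes did not follow the regulators, while a list of long coding genes outside chromatin did. The lists differ in function as well as in gene span, with medians of 25866 bases (range 3064 to 148291) for the partners and 226053 (57640 to 2367748) for the long genes. Of 70 partner subunits and smaller chromatin enzymes, 64 were measured, and the regulator mean held 1.03% of the variance of their mean within groups. They averaged -0.02 ± 0.07 in combination and 0.00 ± 0.04 in control hearts, with 37 negative and 27 positive differences and a median of -0.03. Among the 64, *Smarcd1* (-0.50) and *Kdm4a* (-0.34) were called lower and *Ruvbl2* (0.42) higher against control hearts. Over all rows 1.23% were lower and 2.11% higher, and these genes were named after their values were seen. By contrast 34 of 57 other long coding genes, such as those of giant cytoskeletal and signalling proteins, were measured. Of the 57, *Ino80* codes for a chromatin remodeller, so the list is not wholly outside chromatin. The regulator mean held 87.9% of the variance of the mean of the 34 (84.5% without combination heart 1), with 34 of 34 in the same direction. This list averaged -0.23 ± 0.28 in combination hearts, 0.00 ± 0.20 in diabetes, 0.11 ± 0.17 in HF diet and -0.01 ± 0.19 in control hearts. Its median difference from control hearts was -0.21 with 33 of 34 negative. Against control 3 were called lower (*Atm*, *Apc* and *Dock9*), where 1.23% of all rows were. Against HF diet hearts the median was -0.34 with 19 called lower, where 2.92% of all rows were.

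**Figure D4:**
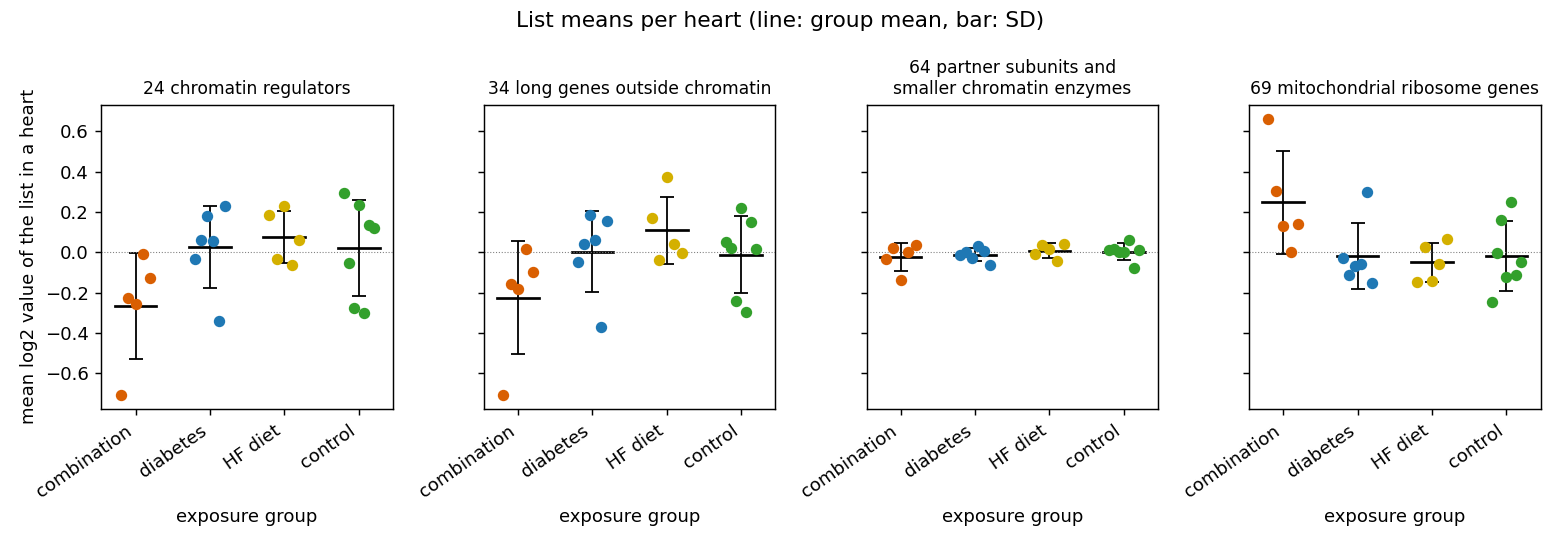
Mean log2 value of 4 gene lists (panels) in each heart (points), with the group mean (line) and SD (bar) of the 4 exposure groups. The regulators and the other long genes both have combination heart 1 at -0.71 and differ in others, such as control heart 1 at 0.29 and 0.05, the partner subunits stay between -0.14 and 0.06, and the mitochondrial ribosome genes run the other way, with combination heart 1 at 0.66.

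The mitochondrial ribosome, 69 of 78 genes for the proteins that translate mitochondrial messages, moved opposite to the regulators. Their mean was 0.25 ± 0.26 in combination, -0.02 ± 0.16 in diabetes, -0.05 ± 0.10 in HF diet and -0.02 ± 0.17 in control hearts. All 69 differences of combination from control hearts were positive, with a median of 0.25 and 17 called higher, against 2.11% of all rows. The regulator mean held 87.2% of the variance of this list's mean within groups (83.7% without combination heart 1), and 1 of the 69 genes moved with the regulators.

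Transcript and protein lengths were not analysed here, so length was read as the span of the gene in the genome (RefSeq, GRCr8), introns included. The 24 regulators spanned a median of 93194 bases, with a range of 21495 (*Kdm6b*) to 241564 (*Baz2b*), against a median of 18087 over 14446 genes, and 20 of the 24 were in the longest of 5 equal classes. Over these classes of all genes, shortest to longest, the median difference of combination from control hearts was 0.03, 0.03, 0.01, -0.01 and -0.05, and 39.1%, 39.8%, 46.5%, 52.9% and 65.2% were negative. The longest class thus leaned the same way as the regulators, by a smaller median. For HF diet against control hearts the longest class had a median of 0.03.

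Cell type markers also moved between hearts, and their part in the regulator differences was not tested. The mean of 10 cardiomyocyte markers was -0.08 ± 0.11 in combination and 0.01 ± 0.08 in control hearts. Of the 10, 8 differences from control hearts were negative and 0 were called, against 1.23% of all rows lower and 2.11% higher. The regulator mean held 83.3% of the variance of the marker mean within groups (*Ryr2* is also in the long gene list). For 9 erythroid genes the mean was 0.29 ± 0.63 in combination, 0.21 ± 0.33 in diabetes, -0.15 ± 0.17 in HF diet and -0.19 ± 0.41 in control hearts, with 9 of 9 differences of combination from control positive. The regulator mean held 7.19% of the erythroid variance, and 2 regulators were called against control hearts, with a median of -0.23, when this mean entered the fit as a covariate, where 0.437% of all rows were lower. Endothelial markers (7 genes) followed the regulators to 44.1%, fibroblast markers (8 genes) to 4.36% and macrophage markers (8 genes) to 0.0064%. Fibroblast markers averaged -0.13 ± 0.12 in combination and 0.02 ± 0.10 in control hearts, with 7 of 8 negative.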

How the data were processed

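RNA of 23 newborn hearts was hybridized by the authors to Affymetrix Rat Gene 1.0 ST arrays, and probe cell intensities were normalized in GeneSpring GX with a quality filter. The authors deposited log2 values of 29170 probe sets, which the values show to be centred on each row's median. Neither the normalization algorithm nor the limits of the filter was stated. Probe sets were named from the platform annotation (15310 with 1 symbol, 323 with several, 13537 with none), of which 15279 matched RefSeq by Entrez identifier, and probe sets of 1 gene were averaged. One linear model, with a mean for each group, covered 28366 rows, 14506 genes and all other probe sets, with limma 3.58.1 in R 4.3.3 (lmFit and eBayes), Benjamini-Hochberg adjustment running over all rows. The methods' unequal-variance test was run on the same values, and exact permutation tests enumerated all splits of the hearts for single genes. The fit was tested on simulated data. Groups came from the exposure characteristic of each sample. Members and gene lists were chosen with earlier results of these data known. Named regulators were the members past the threshold in each comparison, at most 6 by moderated t, and the member of each class with the smallest p against control; *Chd6* and others were named beyond the rule to account for every member. Alternatives were quantile normalization, array weights, scaling arrays to one spread, fitting symbol-bearing genes alone, 1 probe set per gene, averaging hearts of a code stem, the replicate number as a block, an erythroid covariate and leaving out each heart. Scaling and leaving out both hearts of a stem were chosen after seeing the data. A planned grouping by protein length was replaced by gene span. No dim probe set filter was possible, because the centred values hold no level.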

Additional observations from a re-analysis of the deposited data

Results flagged for a closer look

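In 100 groups of 5 to 7 hearts (24 regulators and their mean in 4 exposure groups), 10 held a heart far from the others by Dixon's 95% limit, and chance flags about 1 in 20 groups. They fell in 2 hearts. Combination heart 1 stood apart for *Arid1a* (-1.01, next -0.29), *Baz2a* (-0.75, next -0.20), *Jmjd1c* (-0.78, next -0.19) and *Ncor1* (-0.65, next -0.23). Diabetes heart 5 stood apart for *Ash1l* (-0.45, next -0.04), *Chd3* (-0.55, next 0.00), *Chd6* (-0.62, next -0.04), *Smarca2* (-0.37, next 0.03), *Trrap* (-0.29, next -0.03) and *Jmjd1c* (-0.53, next 0.00). Since the regulators move together within groups, these are not 10 independent events.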

How the results depend on the processing

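The median of the regulators in combination hearts was negative under every setting run, while the number called varied. The share of all rows called lower is in parentheses. With 8 called against control hearts (1.23%), the number was 3 with quantile normalization (0.613%), 1 with array weights (0.434%), 2 with an erythroid covariate (0.437%), 1 with arrays scaled to one spread (0.451%), 2 with the methods' t-test (0.469%) and 0 without combination hearts 1 and 2 (0.374%). Against HF diet hearts (11 called, 2.92%) it was 7 with quantile normalization (1.51%), 6 with hearts of a code stem averaged (1.94%), 2 with array weights (1.19%), 3 with the erythroid covariate (0.98%), 3 with scaled arrays (1.38%) and 0 without combination hearts 1 and 2 (0.582%). Against diabetes hearts (8 called, 1.4%) it was 1 with quantile normalization (0.631%), 3 with code stems averaged (1.12%), 1 with array weights (0.772%), 1 with scaled arrays (0.606%), 1 with the methods' t-test (0.476%) and 0 without those hearts (0.353%). The interaction (4 called, 2.61%) gave 2 with quantile normalization (1.68%), 2 with code stems averaged (1.71%), 1 with array weights (1.92%), 2 with scaled arrays (1.89%) and 0 without those hearts (0.934%). The cause was not tested.

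With 1 heart left out, the number called ranged from 0 to 13 against control, 2 to 17 against HF diet, 0 to 15 against diabetes and 0 to 15 for the interaction, where 0.479% to 2.88%, 1.18% to 5.02%, 0.539% to 3.66% and 1.42% to 5.23% of all rows were lower. Medians ranged from -0.35 to -0.18, -0.40 to -0.24, -0.35 to -0.18 and -0.42 to -0.23. Besides combination heart 1, the hearts that moved a number by over 1.5 times were control hearts 1 (4), 3 (13), 4 (5), 5 (13) and 6 (5) against control, HF diet hearts 1 (6) and 3 (6) and combination heart 4 (17) against HF diet, and diabetes hearts 2 (5), 3 (3), 5 (15) and 6 (0) and combination heart 4 (14) against diabetes. For the interaction they were control hearts 1 (10), 2 (2), 3 (2), 4 (8) and 5 (2), diabetes hearts 2 to 4 (2 each), 5 (15) and 6 (1), HF diet hearts 1 and 3 (1 each) and combination hearts 2 (2), 4 (10) and 5 (7). Leaving out 1 heart turned the median in diabetes against control hearts (-0.06 to 0.07) and in diabetes against HF diet hearts (-0.09 to 0.02). No regulator was called in any single-exposure comparison under any setting run.

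With the replicate number as a block, 2, 10 and 1 regulators were called against control, HF diet and diabetes hearts and 3 in the interaction, where 0.761%, 2.95%, 0.91% and 2.61% of all rows were lower. Same-numbered hearts did not deviate together as a set (31 pairs, median r -0.08, from -0.42 to 0.56, 7 over 0.1). Hearts of other numbers gave a median r of -0.01 (166 pairs, from -0.53 to 0.41, 54 over 0.1). Whether some numbers pair hearts cannot be read from this. Over 25 combinations of named regulator and comparison, 821 alternatives left 636 on the same side of the threshold, took 182 below it, brought 3 past it and reversed 0. Many of the 821 left out a heart of a group outside the comparison and could change little, so 636 does not measure stability. Without combination heart 1, 21 of the 25 went below the threshold, and with array weights 18 did. *Kdm2a* and *Ncor1* against control hearts are among the 25 but were not past the threshold at the start, so they could not go below it.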
